A study of Mus musculus with 2 samples.

Results

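The 31 genes described here are 21 immediate early genes and 10 heat shock genes, taken from the 32285 genes of the deposited matrices by their symbols. All 31 were found. They were measured by droplet-based single-cell RNA sequencing (10x Genomics 3' chemistry, version 3) in cells from subcutaneous, syngeneic fibrosarcoma tumours of WT C57BL/6 mice; the age, sex and number of mice and the tumour line are not given in the sources used here. The tumours were digested for 45 min at 37 °C with collagenase b and DNase I, red cells were lysed, and the suspension was passed over a magnetic column. The iron_negative library is the column flowthrough and the iron_positive library is the eluate of cells that the magnet held back. Each fraction is 1 library, so there is no replicate check and no test between fractions, and every interval below is a 95% interval that covers counting error only.

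Immediate early genes are transcribed within minutes of a stimulus without new protein synthesis; most encode transcription factors or brakes on signalling, such as the Fos and Jun partners that form AP-1, and serum response factor and CREB bind at the promoters of many of them. Heat shock genes encode chaperones that hold or refold damaged proteins, and heat shock factor 1 drives their induction when such proteins build up. Both sets are also known to be induced in warm enzymatic digestion of tissue, before cells are lysed. Neither fraction here was prepared without digestion, so transcripts present in the tumour and transcripts made during preparation cannot be told apart.

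Most of the members are short genes, while their exon numbers differ between the sets. In the GENCODE vM21 annotation of GRCm38, the assembly that mm10 names, 5 of the 21 immediate early genes and 2 of the 10 heat shock genes have a single exon in the transcript with the longest coding sequence, against 6.86% of protein-coding genes. The median span was 3969 bases for the immediate early genes, 7300.5 bases for the heat shock genes and 17318 bases for all protein-coding genes. Spans lay below that value for 18 of 21 and 9 of 10 genes, the exceptions being Dusp1, Atf3, Nr4a1 and Hsph1. The median number of exons was 2 for the immediate early genes and 9 for the heat shock genes, against 7 for all protein-coding genes. Hspa1a (chr17:34969190-34972156) and Hspa1b (chr17:34956436-34959238) encode the inducible HSP70 and lie 9951 bases apart on the minus strand. Of the 50-base words in the longest Hspa1a transcript, 58.8% also occur in Hspa1b, but none of those in its last 400 bases do, which is the end that 3' counting reads. Hspd1 and Hspe1, the mitochondrial HSP60 and its co-chaperone, lie head to head on chromosome 1 and overlap by 112 bases. Members of the HSP70 and HSP90 families have close copies, and the counting of reads shared with copies is unstated, so their absolute levels are less certain.

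Upstream sequence of 25 of the 31 members was found in RefSeq (GRCm38.p6). None was found for Egr1, Egr3, Ier2, Hspa8, Hsp90aa1 and Hsp90ab1, so these were not searched for motifs. The 250 bases before the start were searched on both strands. A gene counted if any of its promoters held the motif. Pairs of inverted heat shock units are spelled GAANNTTC or TTCNNGAA. They were upstream of 6 of 7 heat shock genes (Hspa1a, Hspa1b, Dnaja1, Hspd1, Hspe1 and Hsph1). They were also upstream of 2 of 18 immediate early genes (Jun and Egr2) and of 14.5% of all 27025 genes with a promoter. Windows of Hspd1 and Hspe1 overlap, so their matches are shared. These were also the only members with the longer form, in which GAANNTTC is followed by any 2 bases and a further GAA. That form overlaps the paired form and was upstream of 0.514% of genes. The cyclic AMP response element TGACGTCA was upstream of Dusp1 and Btg2 (1.77% of genes), the CArG box of Egr2 and Zfp36 (1.62%) and TATAAA of Fos (14.3%). The AP-1 motif TGANTCA was in none of the members' windows and upstream of 7.82% of genes. Some windows with a motif overlap annotated exons of the members. The overlap was 250 bases for Zfp36, 218 for Dnaja1, 194 for Hspd1 and 159 for Hspe1. It reached 61 for Egr2, 57 for Hsph1 and 47 for Dusp1, so motifs there may lie in transcribed sequence. A few windows are shown, 5′ to 3′, because these genes recur below and differ in the motif they hold, with the motif in capitals. Hspa1a (chr17:34972157-34972406, minus strand), Hspa1b (chr17:34959239-34959488, minus) and Jun (chr4:95052223-95052472, minus) hold the paired heat shock units, Btg2 (chr1:134079156-134079405, minus) holds the cyclic AMP element, and Fos (chr12:85473640-85473889, plus) holds the TATA box. The Hspa1a and Hspa1b windows match at 247 of 250 positions.
Hspa1a: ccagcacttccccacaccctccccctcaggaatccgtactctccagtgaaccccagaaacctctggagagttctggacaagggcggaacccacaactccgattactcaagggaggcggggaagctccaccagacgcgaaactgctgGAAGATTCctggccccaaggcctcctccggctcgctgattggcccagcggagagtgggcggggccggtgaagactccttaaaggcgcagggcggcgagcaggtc
Hspa1b: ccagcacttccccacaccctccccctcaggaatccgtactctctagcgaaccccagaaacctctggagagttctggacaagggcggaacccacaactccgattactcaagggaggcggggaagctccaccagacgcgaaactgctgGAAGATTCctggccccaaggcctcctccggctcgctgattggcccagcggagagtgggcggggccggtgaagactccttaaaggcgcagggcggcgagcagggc
Jun: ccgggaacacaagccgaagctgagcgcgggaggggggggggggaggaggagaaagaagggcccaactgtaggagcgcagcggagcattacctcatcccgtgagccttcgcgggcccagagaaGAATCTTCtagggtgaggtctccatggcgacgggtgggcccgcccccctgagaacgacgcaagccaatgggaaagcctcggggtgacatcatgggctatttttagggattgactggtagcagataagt
Btg2: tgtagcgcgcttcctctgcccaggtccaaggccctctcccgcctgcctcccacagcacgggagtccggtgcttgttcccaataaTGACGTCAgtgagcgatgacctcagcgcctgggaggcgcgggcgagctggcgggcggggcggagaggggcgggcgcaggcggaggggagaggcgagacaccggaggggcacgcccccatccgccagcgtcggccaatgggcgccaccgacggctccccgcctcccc
Fos: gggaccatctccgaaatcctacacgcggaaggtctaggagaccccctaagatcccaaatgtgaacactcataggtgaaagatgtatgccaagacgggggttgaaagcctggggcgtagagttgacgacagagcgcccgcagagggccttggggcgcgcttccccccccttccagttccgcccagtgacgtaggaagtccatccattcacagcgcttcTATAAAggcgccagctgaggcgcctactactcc

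The matrices hold 10124 barcodes and 132796517 UMIs (unique molecular identifiers, 1 for each captured transcript) for iron_negative, and 13668 barcodes and 129921053 UMIs for iron_positive. Barcodes with at least 200 genes and at most 15% of UMIs from mitochondrial genes were kept, 9403 and 12143 of them, with median depths of 13017 and 7349 UMIs; 80 kept barcodes occurred in both libraries. Cells were then gated on marker genes. Levels are given as CPM, the UMIs of a gene per 1000000 UMIs of the same cells. Mononuclear phagocytes (macrophages and monocytes, all 12 of whose markers were above 10 CPM) made up 97.3% of iron_negative and 79.3% of iron_positive cells. Endothelial-like cells numbered 14 and 695, pericyte or smooth muscle-like cells 2 and 140, and mesenchymal-like cells 50 and 400; fibroblasts and fibrosarcoma cells share the collagen genes of the last gate. T or NK-like cells numbered 23 and 58, and 153 and 1125 cells passed no gate.

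Summed over all phagocytes, the immediate early and heat shock genes stood at nearly the same level in both fractions. Within each range of cell depth, given further on, the immediate early sum was lower in iron_positive. The 21 immediate early genes summed to 8454 CPM in iron_negative and 8323 in iron_positive phagocytes, and the 10 heat shock genes to 4125 and 4045. The median log2 ratio of iron_positive over iron_negative was -0.07 for the immediate early genes and 0.02 for the heat shock genes, beside -0.11 for all 7720 genes at 10 or more CPM in either library. Only Hsph1 and Egr3 were at least 1.5-fold higher in iron_positive phagocytes and no member was 1.5-fold lower; over all measured genes these shares were 2.32% and 0.57%. Of the 30 measured members 1 passed in the higher direction, or 3.33%, which is near the background, since Egr3 lay under 10 CPM. Scaling the libraries so that the median gene does not differ adds 0.11 to every log2 ratio and turns the immediate early median to 0.04, so the signs of values this close to 0 rest on the scaling.

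**Figure D1:**
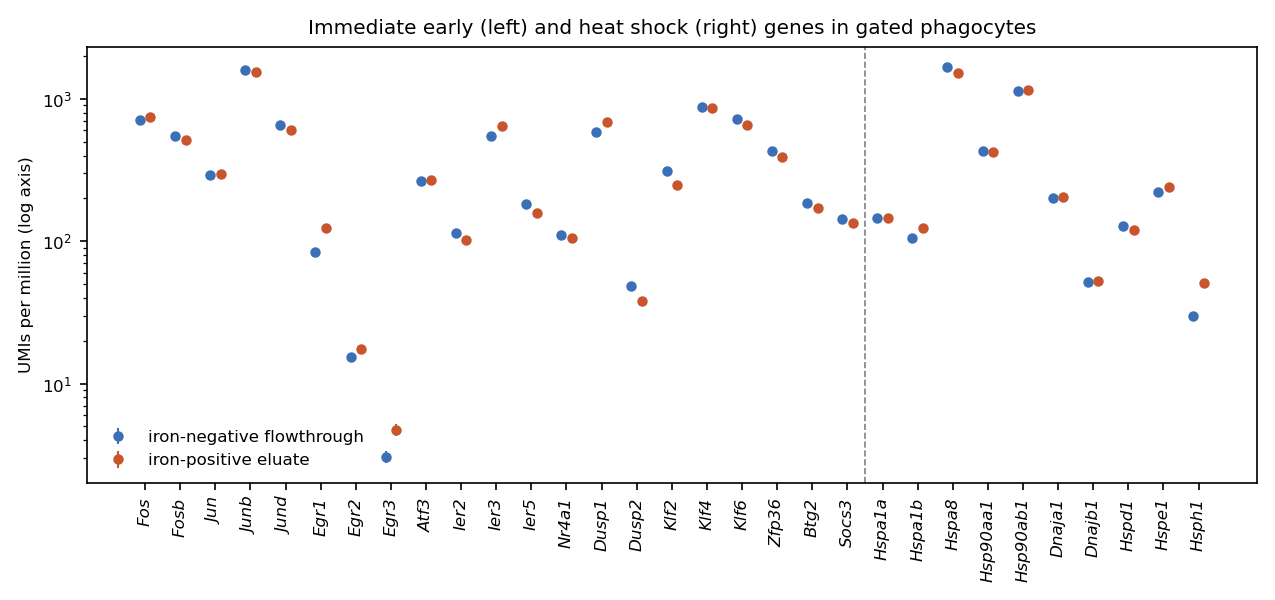
Level of each member in gated phagocytes, as CPM on a log axis, with the iron_negative library in blue and iron_positive in orange. Bars are exact 95% Poisson intervals and are mostly smaller than the points; the dashed line separates immediate early from heat shock genes. Most pairs of points nearly coincide, and Egr1, Egr3 and Hsph1 show the widest gaps upward.

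The AP-1 genes were among those with the smallest differences. Fos stood at 708 CPM in iron_negative and 744 in iron_positive phagocytes, a log2 ratio of 0.07. Jun, its main partner, stood at 292 and 298 (0.03), and Atf3, a stress-induced partner of the same family, at 265 and 269 (0.02). Fosb gave 553 and 512 (-0.11), Junb -0.05 and Jund -0.13. Jund had the widest gap of these, at 658 and 601 CPM. In the equally weighted mean over phagocyte states, described further on, Fos, Jun and Atf3 took the opposite sign, at -0.01, -0.02 and -0.01.

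Egr1, the zinc finger factor induced through serum response factor, was the member with the largest gap among those measured well in both fractions apart from Hsph1. It stood at 83.5 CPM (10449 UMIs) in iron_negative and 123 (11102 UMIs) in iron_positive phagocytes, a log2 ratio of 0.56 (0.52 to 0.60), just under 1.5-fold. Its relatives were scarcer: Egr2 stood at 15.3 and 17.5, and Egr3 at 3.06 (383 UMIs) and 4.70 (424 UMIs), a log2 ratio of 0.62 (0.42 to 0.82). The Egr1 and Egr3 ratios depended on which phagocytes were pooled. Egr1 passed 1.5-fold in 4 of the 14 alternative settings, at 0.69 with class gates doubled, 0.67 with median-ratio scaling, 0.61 without the Mmp12-high cells and 0.60 without the cells high in Hspa1a plus Hspa1b. With the phagocyte states weighted equally it stood at 0.22, and after subtracting 10% of free RNA at 0.38. Egr3 lost its call in 6 of the 14 settings, among them equal weighting of states (0.44), thinning to 1000 UMIs (0.07) and subtraction of free RNA (0.42). A single iron_positive phagocyte, in the cycling state, held 50 of the 424 Egr3 UMIs, and the fullest iron_negative cell held 16 of 383. Without these 2 cells the Egr3 ratio was 0.50, under 1.5-fold.

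Among the feedback regulators the directions were mixed and all stayed within 1.5-fold. Dusp1, a phosphatase that switches off MAP kinases, stood at 589 and 692 CPM (log2 ratio 0.23), and Ier3 at 551 and 646 (0.23). Dusp2, a related phosphatase, stood at 48.8 and 38.2 (-0.35) and Klf2, a factor that restrains activation of myeloid cells, at 313 and 248 (-0.33). These were the lowest ratios of the 31. Zfp36, which destabilises cytokine mRNAs, stood at 429 and 392 (-0.13), Btg2 at 186 and 172 (-0.11), Socs3, the inhibitor of cytokine receptor signalling, at 144 and 134 (-0.11), and Klf6 at 728 and 657 (-0.15). Ier5 stood at 184 and 159 (-0.21), Ier2 at 115 and 102 (-0.18), the nuclear receptor Nr4a1 at 110 and 105 (-0.07), and Klf4 at 880 and 870 (-0.02). Fosb, Jund, Ier2, Ier5, Dusp2, Klf2, Klf6, Zfp36, Btg2 and Socs3 kept their sign in all 14 alternative settings. For Fosb, Btg2 and Socs3 that sign carries little, since their ratios of -0.11 matched the median of all measured genes, -0.11. With median-ratio scaling they stood at -0.0031, -0.0017 and -0.0007.

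Hsph1, which encodes the HSP110 nucleotide exchange factor of HSP70, was the clearest difference of the whole set. It stood at 30.1 CPM (3767 UMIs) in iron_negative and 50.7 (4577 UMIs) in iron_positive phagocytes, a log2 ratio of 0.75 (0.69 to 0.82). The inducible HSP70 genes did not follow it by that much: Hspa1a stood at 145 and 147 (0.02) and Hspa1b at 106 and 124 (0.23). The constitutive Hspa8 stood at 1673 and 1519 (-0.14). Hsp90aa1, the inducible cytosolic HSP90, gave -0.02, its constitutive relative Hsp90ab1 0.03, and the HSP40 co-chaperones Dnaja1 and Dnajb1 0.03 and 0.02. Hspd1 stood at 128 and 121 (-0.08) and Hspe1 at 222 and 241 (0.12). Without the Mmp12-high phagocytes, 42 cells of iron_negative and 739 of iron_positive, Hsph1 stood at 0.64, and weighting states equally left it at 0.54, under 1.5-fold.

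In 4 further lists of the same pathways few genes passed 1.5-fold. Of 42 measured other immediate early genes, 1 was 1.5-fold higher (2.38%) and 0 lower, near the background of 2.32% and 0.57%; this was Gadd45a, a growth arrest gene, at 11.0 and 18.7 CPM (log2 ratio 0.77). The next in size were Gadd45g (0.49), Ier5l (0.48) and Phlda1 (0.47). Of 36 other heat shock and chaperone genes, 1 was 1.5-fold higher (2.78%, also near the background) and 0 lower. That gene was Serpinh1, the collagen chaperone HSP47, at 2.76 and 12.2 CPM (2.14), followed by Fkbp5 (-0.37), Ahsa1 (-0.36) and Cct5 (-0.29). None of 12 upstream regulators passed, with Mrtfa (-0.43), Srf (-0.33), Creb1 (-0.26) and Mrtfb (0.23) the furthest from 0. Nor did any of 17 endoplasmic reticulum stress genes, where Herpud1 (-0.36), Calr (-0.26), Hsp90b1 (-0.22) and Pdia6 (-0.22) led. With genes under 10 CPM included, as for Egr3, 7 of 49, 4 of 42, 0 of 13 and 2 of 19 genes of these lists were 1.5-fold higher. The background shares do not cover such scarce genes.

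Markers of other cell types also moved in the phagocyte sums. The 12 mesenchymal markers summed to 36.1 CPM in iron_negative and 157 in iron_positive phagocytes, with 12 of 12 higher, and the 10 endothelial markers to 68.9 and 115, with 9 of 10 higher. The 10 pericyte or smooth muscle markers summed to 6.98 and 22.4, with 3 of them at 0 in iron_negative. Their part in the Egr1, Egr3 and Serpinh1 differences was not tested beyond the subtraction of free RNA given above for Egr1 and Egr3; Hsph1 stayed at 0.75 under that subtraction.

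Summed over all kept cells of a library, more members passed 1.5-fold than in phagocytes, and so did more genes in general. Here 4 of 31 (12.9%) were at least 1.5-fold higher in iron_positive (Egr1, Egr3, Dnajb1 and Hsph1) and 0 were lower. Of 8241 measured genes, 9.29% and 3.98% passed in these directions, so the count of higher members is near the background. Egr1 stood at 122 CPM in iron_negative and 304 in iron_positive cells, a log2 ratio of 1.31, and Egr3 at 5.44 and 13.4 (1.29). Dnajb1 stood at 59.6 and 99.7 (0.74), Jun at 348 and 495 (0.51) and Dusp2 at 49.3 and 70.5 (0.52). The Dusp2 ratio thus had the opposite sign to that in phagocytes. The immediate early median was 0.11 and the heat shock median 0.24.

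The 2 libraries differ in which cells carried those transcripts. Of all Egr1 UMIs, the 3 stromal-like classes held 21.2% in iron_negative and 64.0% in iron_positive, where these classes held 1.85% and 22.8% of the UMIs of all genes. Phagocytes held 65.3% and 29.1% of Egr1 UMIs. For Dnajb1 the stromal-like share was 10.0% and 56.7%, for Jun 11.0% and 49.9%, and for Fos 2.92% and 25.2%. Hsph1 was distributed close to the average gene, with 1.65% and 20.4% in stromal-like cells.

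Within the iron_positive library, the stromal-like classes stood apart from phagocytes in Egr1, Egr3, Jun and Dnajb1 in particular. Egr1 stood at 123 CPM in phagocytes, 597 in endothelial-like, 1160 in mesenchymal-like and 1258 in pericyte or smooth muscle-like cells, which is 4.85-, 9.42- and 10.2-fold higher. Egr3 was 4.27-, 12.4- and 16.5-fold higher in the same order, and Jun 2.50-, 4.98- and 5.34-fold. Dnajb1 was 3.30-, 6.64- and 6.10-fold higher and Dnaja1 2.41-, 2.47- and 2.56-fold. Jund was 2.18-, 2.41- and 2.07-fold higher and Ier2 2.15-, 2.90- and 3.27-fold. All of these ratios are within 1 library.

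**Figure D2:**
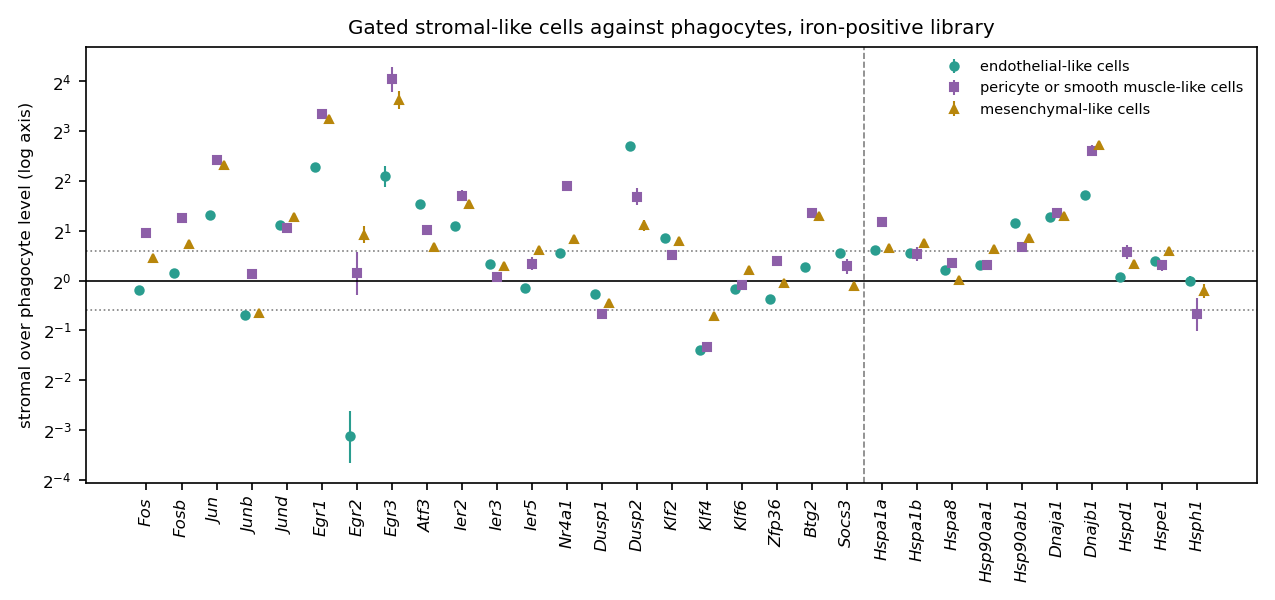
Level of each member in 3 gated stromal-like classes divided by its level in phagocytes, all in the iron_positive library, on a log axis with base 2. Bars are exact 95% intervals for counting error; the solid line is equality, the dotted lines mark 1.5-fold, and Egr1, Egr3, Jun and Dnajb1 lie highest while Klf4 lies below 1 in each class.

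Not every member followed this pattern. Of 21 immediate early genes, 8 were at least 1.5-fold higher and 3 lower in endothelial-like cells, 13 and 2 in mesenchymal-like cells, and 11 and 2 in pericyte or smooth muscle-like cells. Of 10 heat shock genes, 4, 7 and 4 were higher and 0, 0 and 1 lower. The background shares were 26.5%, 27.2% and 28.8% of measured genes higher and 30.1%, 28.1% and 26.6% lower. Klf4, a factor that macrophages express strongly, stood at 870 CPM in phagocytes and at 328, 532 and 344 in the 3 classes. Junb was lower in endothelial-like and mesenchymal-like cells, at 953 and 981 against 1540. Egr2, a factor tied to macrophage identity, was 8.68-fold lower in endothelial-like cells, at 2.01 against 17.5 CPM. Hsp90ab1 was 2.24-fold higher and Dusp2 6.52-fold higher in endothelial-like cells, and Nr4a1 3.71-fold higher in pericyte or smooth muscle-like cells. Hsph1 was level in endothelial-like cells, at 50.4 against 50.7, and 1.60-fold lower in pericyte or smooth muscle-like cells.

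Many stromal-like cells passed more than 1 class gate: 315 of 695 endothelial-like, 113 of 400 mesenchymal-like and 130 of 140 pericyte or smooth muscle-like cells. In the 380 endothelial-like cells passing a single gate, all 15 calls remained and Socs3 and Hspa1b were added, both at 1.70-fold higher. In the 287 such mesenchymal-like cells 18 of 22 calls remained, Fos was added at 1.62-fold higher, and Egr1 rose to 13.0-fold, Jun to 6.72-fold and Dnajb1 to 9.26-fold. Dusp2 turned from 2.15-fold higher to lower, at a ratio of 0.308 (0.235 to 0.395), and the Klf4, Junb and Atf3 calls were lost. Only 10 pericyte or smooth muscle-like cells passed 1 gate, and 14 of their 18 calls remained. In these few cells the Fos, Fosb and Dusp1 calls were lost, Klf2, Klf6, Hspa1b and Hspe1 were added, and Hsph1 turned to higher on 6 UMIs. In iron_negative, the 50 mesenchymal-like cells were too few for the comparison between fractions, for which at least 100 cells in both were required. Their Egr1 stood at 1641 CPM and their Jun at 2394, and 7 of them passed a second class gate. In iron_positive these levels were 1160 and 1485 in all 400 cells, and 1596 and 2001 in the 287 passing a single gate.

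The share of cells with an Egr1 transcript showed the same order at matched depth. After thinning every cell to 1000 UMIs, which left out 1177 shallower phagocytes of iron_positive and 283 of iron_negative, Egr1 was found in 9.90% of iron_positive and 7.04% of iron_negative phagocytes. In iron_positive it was found in 40.4% of 616 endothelial-like, 57.0% of 328 mesenchymal-like and 59.5% of 121 pericyte or smooth muscle-like cells. In T or NK-like cells of iron_positive the share was 5.17% of 58 cells (1.08 to 14.4%), an interval that includes the phagocyte share. In those of iron_negative it was 8.70% of 23 cells (1.07 to 28.0%). Unthinned shares were 28.6% in iron_positive and 25.4% in iron_negative phagocytes. In iron_positive they were 75.3%, 77.8% and 80.0% in the stromal-like classes and 29.3% in T or NK-like cells. Median depths were 8104.5 UMIs in iron_positive phagocytes and 3940.5 in iron_positive T or NK-like cells.

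Immediate early levels varied more between phagocyte states than between fractions. States were gated on small marker sets holding no member gene, and 10 groups had at least 100 cells in both libraries: 9 states and the cells that passed no state gate. The summed immediate early level ran from 6659 CPM in cycling to 14777 in resident-like iron_negative phagocytes, and from 6288 to 15442 for the same states in iron_positive. Resident-like cells are those with Cd209f, Cd209g, Lyve1 and Cd163, markers of tissue-resident macrophages. Each of the 21 immediate early genes was highest in the resident-like state (14 genes) or the monocyte state (7 genes) in each library. Over the 9 gated states, the median gene spanned 2.53-fold between its lowest and highest state in iron_negative and 2.85-fold in iron_positive.

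**Figure D3:**
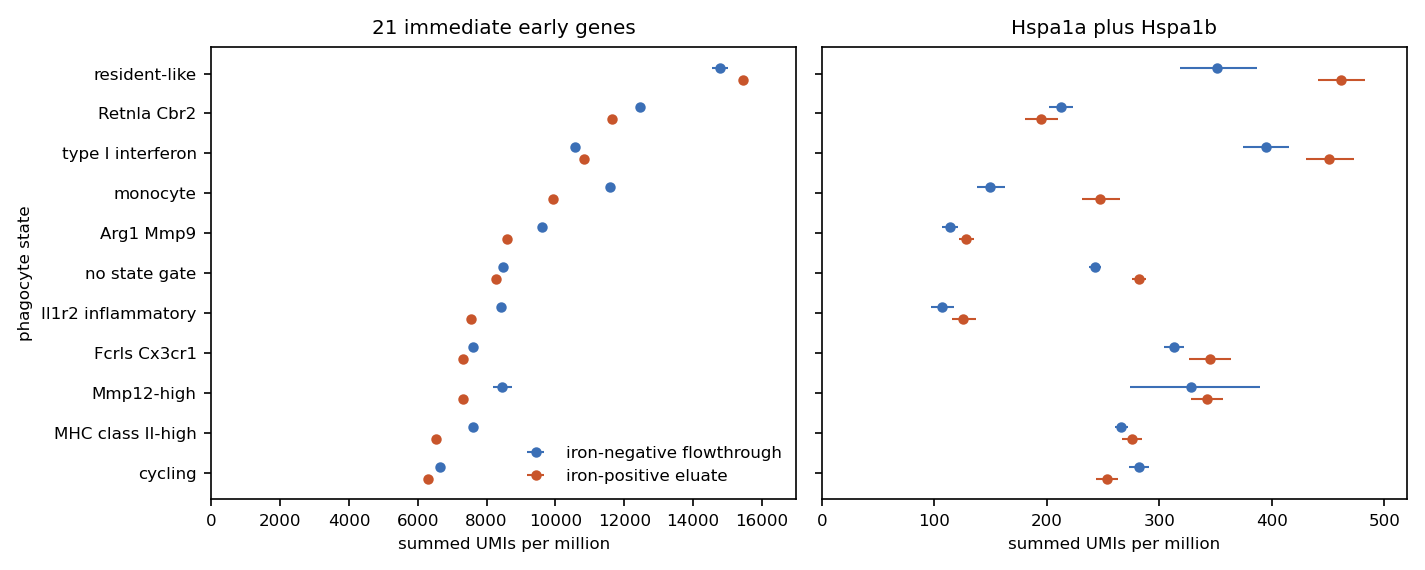
Summed level of the 21 immediate early genes (left) and of Hspa1a plus Hspa1b (right) in each phagocyte state, in CPM, for iron_negative (blue) and iron_positive (orange). Bars are exact 95% Poisson intervals; resident-like cells are highest and cycling cells lowest on the left, while on the right the Il1r2 and Arg1 Mmp9 states are lowest.

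Egr1 spanned the states most among the well-measured members. It stood at 562 CPM in resident-like cells of each library, at 323 and 326 in Retnla Cbr2 cells, and at 46.9 and 53.2 in cycling cells. Resident-like cells made up 1.28% of iron_negative phagocytes (117 cells) and 4.44% of iron_positive phagocytes (428 cells). The Egr1 log2 ratio in resident-like cells was 0.00 (-0.13 to 0.13), an interval that includes equality. In type I interferon cells Egr1 stood at 111 (418 UMIs, 330 cells) and 235 (896 UMIs, 412 cells), a log2 ratio of 1.08 (0.92 to 1.26). That interval does not cover the spread between cells, and Egr1 UMIs were concentrated in few cells. Over all phagocytes, the top 5% of cells held 82.6% of Egr1 UMIs in iron_negative and 70.3% in iron_positive. Whether Egr1 differs between fractions in type I interferon cells was not tested. Jun stood at 500 and 791 in resident-like cells (0.66). Junb in resident-like cells stood at 3006 and 2727 CPM against 1121 and 1110 in cycling cells, and Klf4 at 1759 and 1898 against 563 and 524.

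Heat shock genes were flatter across states and followed no single state. Over the same 9 states the median gene spanned 1.72-fold in iron_negative and 1.74-fold in iron_positive, and Hspa8 only 1.29- and 1.32-fold. The widest spans were those of Hspa1b (3.77- and 4.57-fold), Hspa1a (3.72- and 3.45-fold) and Hsph1 (2.41- and 3.56-fold). Hspa1a plus Hspa1b summed to 107 CPM in the Il1r2 state and 394 in the type I interferon state of iron_negative, and to 126 in the Il1r2 and 461 in the resident-like state of iron_positive. Over the 22 sums (11 groups of cells in 2 libraries), the median Pearson correlation between members was 0.68 for the 210 immediate early pairs, 0.14 for the 45 heat shock pairs and -0.11 for the 210 mixed pairs; the sums share libraries and depth, so these are descriptions. Of 2738 genes at 50 or more CPM, those whose pattern was most like the immediate early sum were Wsb1 (0.99), Csrnp1 (0.95), Trib1 (0.95), Tut7 (0.93) and Lamp2 (0.93). Those most like Hspa1a plus Hspa1b were Clcn7 (0.82), Sat1 (0.80), Snx10 (0.79), Cpeb4 (0.66) and Nek7 (0.65).

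The 10 groups are parts of the same 2 libraries, so counts of groups are not replication. The share of all measured genes with the same direction in every group was not counted. Within states, Hsph1 was the most regular difference between fractions among the members. It was higher in iron_positive in 10 of 10 groups, with the interval above equality in 9, from a log2 ratio of 0.26 in cycling cells to 1.24 in Arg1 Mmp9 cells. In Arg1 Mmp9 cells, macrophages with arginase 1 and gelatinase B transcripts, it stood at 41.0 (332 UMIs) and 97.0 (1018 UMIs). In iron_positive its highest level, 104 CPM, was in the Mmp12-high state. Hspe1 was also higher in 10 of 10 groups, with the interval above equality in 7, but by at most 0.38. Hspa1b was higher in 9 of 10 groups and differed most in monocytes, at 49.95 (188 UMIs) and 113 (374 UMIs), a log2 ratio of 1.18 (0.93 to 1.44).

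Counts of members past 1.5-fold within states were small. In resident-like cells 2 were higher (Jun and Hspa1b) and 1 lower (Egr3), where 5.65% and 11.3% of genes passed in these directions. In monocytes 2 were higher (Hspa1b and Hsph1) and 0 lower, beside 2.55% and 3.52%. In type I interferon cells 3 were higher (Egr1, Egr3 and Hsph1) and Dusp2 was lower, beside 4.14% and 5.82%. In Arg1 Mmp9 cells Hsph1 was higher, and Dusp2 and Btg2 were lower, both at a log2 ratio of -0.66, beside 2.54% and 5.23%. In Il1r2 cells Socs3 was lower, beside 1.84% and 2.17%, in cells with no state gate Egr1 was higher, beside 2.25% and 0.573%, and in cycling cells no member measured at 10 CPM passed, beside 0.954% and 0.352%. Egr3 was also past 1.5-fold higher in these 3 groups, but it lay under 10 CPM in both libraries there, so these shares do not cover it; in Il1r2 cells it rests on 8 and 2 UMIs, with an interval that includes equality. No member passed in Retnla Cbr2 (2.52% and 2.97%), Fcrls Cx3cr1 (0.846% and 0.692%) or MHC class II-high cells (0.444% and 0.188%).

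Junb, Ier5, Klf6 and Socs3 were lower in iron_positive in 10 of 10 groups by up to 0.34, 0.43, 0.34 and 0.67 on the log2 scale, and Junb intervals lay below equality in 9. Set against the median of all measured genes in the same group, they were lower in 7, 8, 8 and 7 of the 10, so part of these directions rests on the scaling; Hsph1 and Hspe1 were above that median in all 10. The immediate early median was below 0 in each of the 10 groups, from -0.01 in resident-like to -0.23 in MHC class II-high and Arg1 Mmp9 cells; the median of all measured genes in these groups lay between -0.04 and -0.14. State gates are ranges of a score and not sharp types: 308 of the 603 iron_negative Retnla Cbr2 cells passed a second state gate, as did 76 of the 117 resident-like cells.

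A small share of phagocytes was high in the inducible HSP70 transcripts. Phagocytes with at least 10 Hspa1a plus Hspa1b UMIs per 10000, and at least 5 in all, numbered 525 in iron_negative (5.74%, 5.27 to 6.23%) and 489 in iron_positive (5.08%, 4.65 to 5.53%), and held 65.1% and 64.5% of these UMIs. The cells were chosen on these same UMIs, so the share of UMIs they held follows in part from the threshold. No UMI of either gene was seen in 55.0% and 62.7% of phagocytes. The minimum of 5 UMIs favours deep cells, and the cells above the threshold had median depths of 14499 and 10387 UMIs; 96 and 78 of them lay within 25% of the threshold. At 1000 UMIs per cell, Hspa1a was found in 9.02% and 9.33% of phagocytes and Hspa1b in 6.71% and 7.22%, against 36.1% and 29.1%, and 25.6% and 21.9%, unthinned. In iron_positive T or NK-like cells the thinned Hspa1a share was 5.17%. By state, the share above the threshold ran from 1.60% of Arg1 Mmp9 to 9.39% of type I interferon cells in iron_negative and from 1.61% of Il1r2 to 9.71% of type I interferon cells in iron_positive.

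Other members were also high in these cells in both libraries, some by similar and some by different amounts. Egr1 stood at 368 CPM in them against 63.8 in the other iron_negative phagocytes, and at 511 against 96.9 in iron_positive, which is 5.78- and 5.27-fold higher. Jun was 4.32- and 4.24-fold higher, Dnaja1 2.95- and 2.61-fold, Hsp90aa1 2.80- and 2.88-fold, Dnajb1 2.69- and 2.65-fold, Atf3 2.73- and 2.47-fold and Klf2 2.45- and 2.88-fold. Fos was 2.30- and 2.02-fold higher. For Hsph1 the 2 libraries differed, at 4.30-fold (3.98 to 4.64) in iron_negative and 3.04-fold (2.81 to 3.28) in iron_positive, and likewise for Egr3, at 3.47-fold (2.65 to 4.48) and 1.80-fold (1.30 to 2.45). Junb was nearly level at 1.07- and 1.08-fold, and Klf4 was below the other phagocytes at ratios of 0.907 and 0.916. The cells were chosen on Hspa1a and Hspa1b, so their own ratios carry no information, and the others are given as descriptions over cells of 1 library each. Without these cells the phagocyte medians between fractions were -0.07 for the immediate early genes and 0.04 for the heat shock genes.

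**Figure D4:**
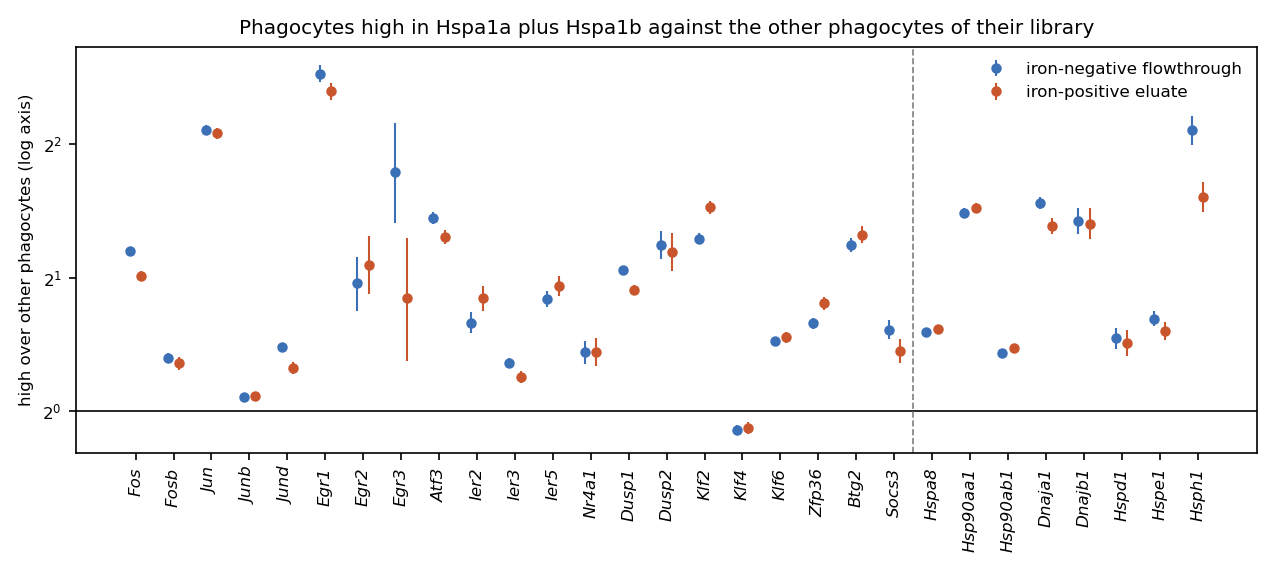
Level of each other member in phagocytes high in Hspa1a plus Hspa1b divided by its level in the remaining phagocytes, for iron_negative (blue) and iron_positive (orange), on a log axis with base 2. Bars are exact 95% intervals for counting error; Egr1, Jun and Hsph1 lie highest in both libraries and Klf4 lies below 1.

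The levels also moved with cell depth and mitochondrial share. Both are used as signs of RNA quality, but depth also differed between phagocyte states. Median depths in iron_negative and iron_positive were 21516 and 16886 UMIs in cycling cells. They were 7893 and 8744.5 in resident-like cells, and 8107 and 6139 in monocytes. The trends with depth and with state were not separated. The immediate early sum fell from 15456 CPM in iron_negative phagocytes with 1500 to 5000 UMIs to 6721 in those above 20000 UMIs, and from 12233 to 6306 in iron_positive. In each of the 5 depth ranges the iron_positive sum was below the iron_negative one, with 8325 against 11318 under 1500 UMIs. Heat shock sums changed little over the same ranges, between 3776 and 4344. Hspa1a plus Hspa1b stood at 754 (iron_negative) and 523 (iron_positive) CPM in phagocytes with 6 to 10% mitochondrial UMIs, against 232 and 239 at 2 to 4%. Phagocytes excluded for more than 15% mitochondrial UMIs held 327 and 205. Phagocytes under 1500 UMIs numbered 416 in iron_negative and 1734 in iron_positive. With these removed the medians between fractions were -0.07 and 0.03. Hsph1 was higher in iron_positive in each of the 5 depth ranges, for example at 57.5 against 32.7 above 20000 UMIs.

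**Figure D5:**
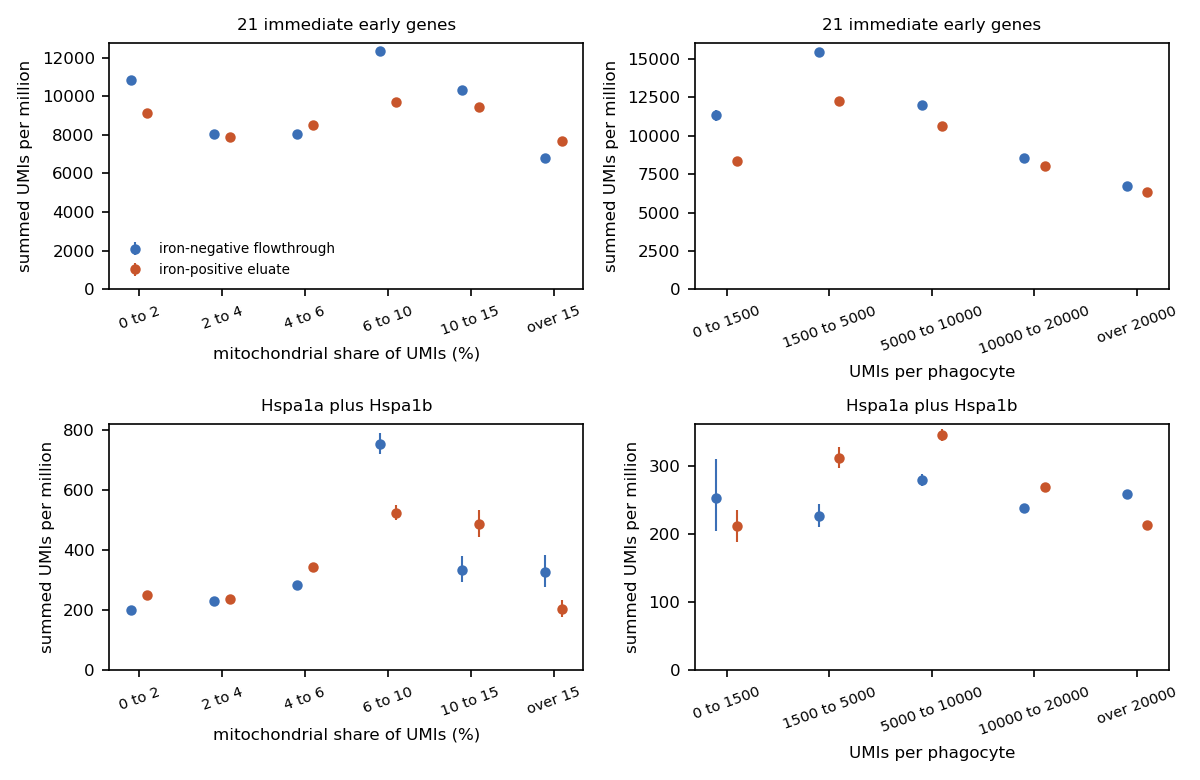
Summed level of the 21 immediate early genes (top) and of Hspa1a plus Hspa1b (bottom), in CPM, in phagocytes grouped by mitochondrial share of UMIs (left) and by UMIs per cell (right), for iron_negative (blue) and iron_positive (orange). Bars are exact 95% Poisson intervals; the immediate early sum falls with depth above 1500 UMIs, and Hspa1a plus Hspa1b peaks at 6 to 10% mitochondrial UMIs.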

How the data were processed

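Both libraries were analysed, 1 per fraction. The authors deposited raw UMI counts per gene and barcode; Cell Ranger 3.1.0 and build mm10 are named per the submitters' processing notes, while per the file headers the matrices were written by Cell Ranger 5.0.0. The annotation release, cell filters and treatment of doublets are not given in the sources used here; no doublet caller was run, and cells passing several gates were counted.

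Barcodes with at least 200 genes and at most 15% mitochondrial UMIs were kept. A cell was assigned to the class whose markers, in UMIs per 10000, exceeded their gate by the largest factor, with at least 5 marker UMIs (3 for phagocyte states). Gates were set after viewing the score distributions; for the mesenchymal class, gates of 20, 30 and 50 were tried and 50 was kept. Counts were summed over cells and divided by the summed UMIs of those cells (CPM, UMIs per 1000000). Ratios used counts plus 0.5, exact 95% intervals (Poisson for sums, conditional binomial for ratios, Clopper-Pearson for shares) and a threshold of 1.5-fold. The calculation was tested on simulated Poisson counts. These hold no variation between cells, states or libraries, so the test covers the arithmetic only. With 1 library per fraction, no p-value is given. A share of 0 cells would allow up to 0.0319% (iron_negative) and 0.0247% (iron_positive) by the limit of 3 counts.

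All 31 members are described; from each other list, the 4 genes with the largest absolute log2 ratio at 10 or more CPM are named. Members and lists were chosen with earlier results of these data known. Of 14 alternatives, 4 were added after seeing the deposited matrices. Sequences came from RefSeq GRCm38.p6 and gene models from GENCODE vM21, to which 99.8% of gene IDs matched. Python 3.11.15, numpy 2.4.6, scipy 1.17.1 and pandas 2.3.3 were used.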

Additional observations from a re-analysis of the deposited data

Results flagged for a closer look

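Egr3 moved in opposite directions between fractions in different phagocyte states; the difference was not tested. In cycling phagocytes it stood at 2.25 CPM in iron_negative (32 UMIs) and 8.61 in iron_positive (83 UMIs), a log2 ratio of 1.92. In resident-like phagocytes it stood at 36.5 (43 UMIs) and 17.1 (73 UMIs), a log2 ratio of -1.10. The cycling UMIs came from 20 of 648 iron_negative cells (3.09%) and 16 of 558 iron_positive cells (2.87%), and 1 of the latter held 50 of the 83 UMIs. In resident-like phagocytes 1 of the 12 iron_negative cells with Egr3 held 16 of the 43 UMIs. Without the cell with most Egr3 UMIs in each library, the log2 ratios were 1.02 in cycling and -0.59 in resident-like cells.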

How the results depend on the processing

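The median log2 ratio of the immediate early genes in phagocytes, -0.07, was -0.038 with class gates doubled, -0.14 for the mean of per-cell values, -0.12 with states weighted equally and 0.040 with median-ratio scaling. The heat shock median, 0.02, was 0.13 with median-ratio scaling and -0.012 after subtracting 10% free RNA. The count of members at least 1.5-fold higher, 2, was 1 for the mean of per-cell values, 1 with cells thinned to 1000 UMIs, 1 after subtracting free RNA, 1 with members at 10 or more CPM, 1 without the cell that held most UMIs of each gene and 0 with states weighted equally. It was 3 with median-ratio scaling, without Mmp12-high cells and without cells high in Hspa1a plus Hspa1b, where Egr1 joined Egr3 and Hsph1. No member was 1.5-fold lower under any of the 14 alternatives. Hsph1 lost its call with states weighted equally, and Egr3 in 6 alternatives. The comparison of mesenchymal-like cells between fractions was not run because iron_negative held 50 such cells. No paired analysis was possible because each group is 1 library. Depth limits single-state values of scarce members, above all Egr3, Egr2 and Dusp2.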

Other observations

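Neutrophil-like cells, few in number, held higher immediate early sums than the phagocyte, stromal-like and T or NK-like classes. The 10 such cells of iron_negative summed to 26396 CPM (674 UMIs) and the 65 of iron_positive to 17153 (2729 UMIs), against 8454 and 8323 in phagocytes. Their Egr1 stood at 3368 (86 UMIs) and 2087 (332 UMIs), and their Hspa1a plus Hspa1b at 1762 (45 UMIs) and 930 (148 UMIs). Of these cells, 4 of 10 and 30 of 65 also passed another class gate, so the sums are not those of a clean class. T or NK-like cells had the lowest sums of these classes, at 5205 (23 cells) and 5643 (58 cells).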
